A study of Mus musculus with 22 samples.

Results

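Vascular and leptomeningeal cells (VLMCs), the fibroblast-like cells of the meninges and of the larger vessels of the brain, were examined in whole-cell single-cell RNA-seq (scRNA-seq) of the hypothalamus. The VLMCs were taken as the 1 cluster of the authors' clustering in which the largest share of cells had at least 1 unique molecular identifier (UMI) of Dcn, which encodes the collagen-binding proteoglycan decorin. That cluster, number 13, held 752 of 54890 cells, and 75.8% of its cells had a Dcn UMI. Since Dcn chose the cluster and the clustering itself used gene expression, the levels of genes in the cluster are given as a description with no test against other cells.

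The cells came from male ob/ob mice, which lack leptin and are obese and diabetic, aged 11 weeks. Fibroblast growth factor 1 (FGF1), 3 µg, was injected once into the cerebral ventricles (icv) of 6 mice, and 6 vehicle mice were pair-fed (PF) to them. All 12 hypothalami were collected on Day 5 and dissociated to whole cells, with 1 mouse per droplet library of 3′ ends (10x Genomics, v2 chemistry), so that 1 mouse was 1 replicate. Vehicle replicate 35 carries the letters FP in its label where the other vehicle mice carry PF, and it was read as a vehicle mouse. Both groups shared the ob/ob genotype, so no lean mouse entered any comparison. The libraries held 1967 to 7926 cells and 2652897 to 11866269 UMIs each. The VLMC cluster held 1125619 UMIs in all, with a median of 1279.5 UMIs and 697.5 genes per cell. Of 53065 distinct cell barcodes, 1791 occurred in 2 or more libraries. Of the VLMCs, 49 carried such a barcode, and 0 barcodes occurred in the VLMC cluster of 2 libraries.

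VLMCs build the collagen-rich matrix of the pia and arachnoid and of the sheath around penetrating vessels. They are known for secreting growth factors, retinoic acid and chemokines, and for carriers that move solutes between brain and cerebrospinal fluid. FGF1 binds the FGF receptors, which signal through the MAPK cascade, and an icv injection places it in the fluid that bathes the leptomeninges.

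The cluster carried the genes of meningeal fibroblasts at levels far above those of the other cells as a whole. All 10 VLMC markers (Dcn, Col1a1, Lum, Col1a2, Col3a1, Pdgfra, Slc6a13, Igf2, Islr and Ogn) had a UMI in at least 10% of its cells and were at least 2-fold higher than in the rest of the cells. Dcn (GRCm38, chromosome 10 from 97479609 to 97518143) stood at 3664 UMIs per 1000000 UMIs of the cluster (CPM) against 5.45 CPM in all other cells. Col1a1, a chain of type I collagen (chromosome 11 from 94936224 to 94953042), had UMIs in 41.8% of the cells at 537 against 3.85 CPM. Lum, which encodes the proteoglycan lumican and lies beside Dcn on chromosome 10 from 97565128 to 97572703, had UMIs in 41.0% of the cells at 523 against 0.589 CPM. Ranking the clusters by Col1a1 or Lum, as a share of cells or as a level, picked the same cluster.

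The next cluster by share of Dcn cells, number 20 with 67 cells, had a Dcn UMI in 11.9% of them, followed by border macrophage-like cells at 4.26%, smooth muscle-like cells at 3.16%, endothelial-like cells at 1.99% and pericyte-like cells at 1.95%. Cluster 20 met 5 of the 10 VLMC markers (a UMI in at least 10% of its cells and 2-fold the level of other cells), against 10 of 10 in the VLMC cluster, and was left unnamed. It had UMIs of Slc47a1, an exporter of organic cations found in the arachnoid barrier, in 37.3% of its cells, against 0.133% of VLMCs. None of the 5 arachnoid barrier markers (Slc47a1, Cdh1, Dpp4, Wnt6 and Msx1) reached 10% of VLMCs. The 6 border macrophage markers summed to 9.77 CPM in VLMCs and 18.2 CPM in other cells.

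**Figure D1:**
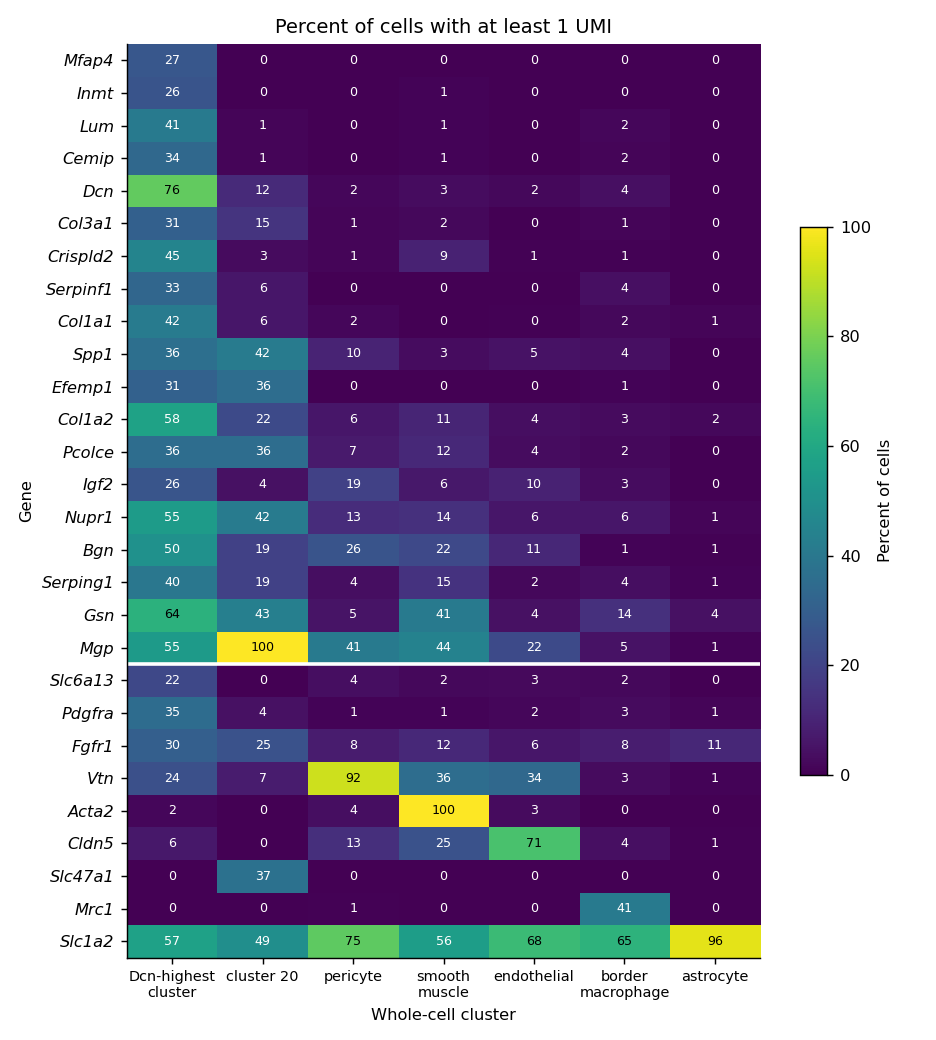
Percent of cells with at least 1 UMI of a gene (colour and printed value, 0 to 100) in the VLMC cluster and 6 other clusters or groups of clusters of whole cells. The upper block holds genes named for the largest ratio of the VLMC level to that of all other cells, and the lower block holds genes of other cell types and Fgfr1. Dcn reaches 75.8% in the VLMC cluster, 11.9% in cluster 20 and at most 4.26% in the other columns, while the astrocyte gene Slc1a2 has UMIs in at least 49.3% of the cells of every column.

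RNA of abundant glia was present in VLMCs and in the other non-glial clusters examined. Slc1a2, the main glutamate transporter of astrocytes, had UMIs in 57.2% of VLMCs, 75.2% of pericyte-like and 64.7% of border macrophage-like cells, and stood at 896 CPM in VLMCs against 3889 CPM in astrocyte-like cells. Mbp, a myelin protein gene, had UMIs in 72.6% of VLMCs. Such shares of glial genes were not read as expression by VLMCs, and part of the Slc1a2 UMIs lay in cells of the cluster that lacked VLMC markers.

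Not every cell of the cluster carried VLMC genes. Over 9 VLMC markers (the 10 without Pdgfra, which oligodendrocyte precursors also express), 585 cells (77.8%) had 3 or more UMIs, 67 had 1 or 2, and 100 (13.3%) had 0. The numbers of cells with 1, 2, 3, 4, 5 and 6 marker UMIs were 34, 33, 22, 29, 32 and 41, so the division at 3 falls on no gap. Of the 100 cells without a marker UMI, 85 had 3 or more UMIs of 6 astrocyte markers. Slc1a2 stood at 2217 CPM in those cells, 623 CPM in the cells with 3 or more VLMC marker UMIs and 3889 CPM in astrocyte-like cells. All 100 had UMIs of Ptgds, which encodes the lipocalin-type prostaglandin D synthase that leptomeninges secrete. Their Ptgds level was 22991 CPM, against 336 CPM in the 13580 astrocyte-like cells, so those cells paired the astrocyte genes with a high level of Ptgds. By mouse, 64 of the 100 came from FGF1 replicate 36 and 24 from vehicle replicate 20. The results that follow are therefore given for all 752 cells and, where it matters, for the 585.

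The yield of VLMCs varied more between mice than between treatments. An FGF1 mouse gave 1, a median of 44.5 and at most 195 VLMCs, and a vehicle mouse gave 7, a median of 14.0 and at most 123. As a share of all whole cells, VLMCs made up 0.0355% at the lowest, 1.54% at the median and 3.85% at the highest in FGF1 mice, and 0.134%, 0.349% and 3.31% in vehicle mice. FGF1 replicate 21 was the lowest of all and FGF1 replicate 7 the highest, so the range of the FGF1 mice enclosed that of the vehicle mice.

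The mean share was 1.68% ± 1.46 with FGF1 (SD, n = 6) and 0.939% ± 1.22 with vehicle (SD, n = 6), a difference of 0.745 percentage points (exact two-sided permutation test, p = 0.357; the smallest p possible is 0.00216). Within the endothelial-like, pericyte-like and VLMC cells, the VLMC share was 18.4% ± 17.5 with FGF1 and 9.74% ± 13 with vehicle (SD, n = 6 each; exact permutation test, p = 0.351). The authors' metadata put 1 FGF1 and 1 vehicle mouse in each of 6 batches. The FGF1 mouse had the higher share in 4 of the 6 batches and the vehicle mouse in batches 4 and 5, with an exact within-batch p of 0.469. With 1 mouse left out, the difference in the share of all cells ran from 0.313 percentage points without FGF1 replicate 7 to 1.22 without vehicle replicate 35, and that in the share of vascular cells from 2.76 to 13.6 without the same mice. Over the cells with 3 or more VLMC marker UMIs, the share was 1.38% ± 1.34 with FGF1 and 0.809% ± 1.15 with vehicle (SD, n = 6 each; exact permutation test, p = 0.433). Neither share differed by more than the spread between mice.

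**Figure D2:**
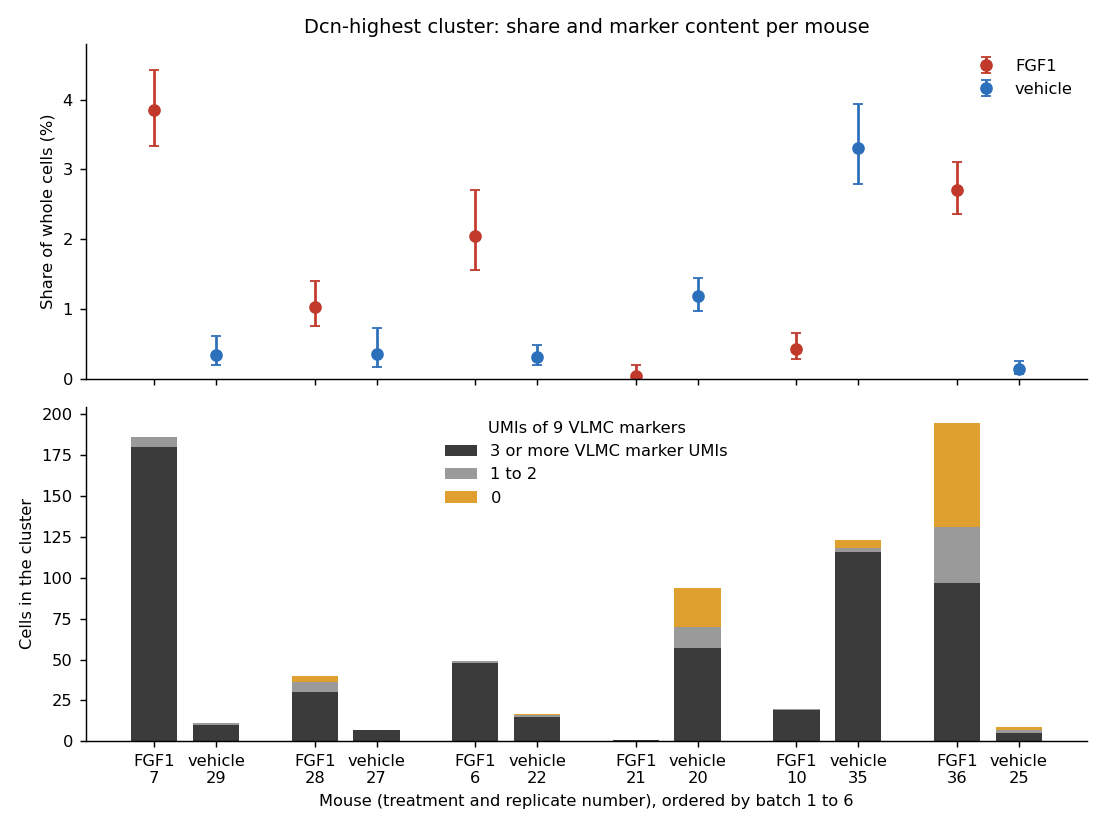
Upper panel: share of whole cells in the VLMC cluster (percent) for each mouse, with 95% Wilson intervals, which cover counting error only. Lower panel: number of cells in the cluster per mouse, divided by the UMIs of 9 VLMC markers in a cell. Mice are ordered by batch; FGF1 replicate 36 and vehicle replicate 20 hold most of the cells with 0 marker UMIs.

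The amount of RNA per VLMC did not differ between the groups by more than the spread between mice. The median VLMC of the 5 FGF1 mice with at least 10 cells had 1404 ± 408 UMIs, and that of the 4 such vehicle mice had 1181 ± 202 UMIs (SD; exact permutation test, p = 0.429, adjusted over 3 measures 0.643). The difference of 223 UMIs fell to 44.9 without FGF1 replicate 10. Mitochondrial UMIs made up 9.90% ± 1.76 and 11.4% ± 1.62 (exact permutation test, p = 0.222), and ribosomal UMIs 15.6% ± 3.64 and 15.5% ± 4.06 (p = 0.960, exact). In that design the 9 mice could be divided in 126 ways, which limits how small p could be. More than 20% mitochondrial or ribosomal UMIs, the limit of quality control in the methods, was found in 255 VLMCs (33.9%), against 7.62% of other cells. Ribosomal UMIs accounted for 230 of them. FGF1 replicate 7 held 111 of the 255 and vehicle replicate 35 held 75.

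Matrix genes formed the core of the VLMC profile. Of 1829 genes with a UMI in at least 10% of VLMCs, 223 stood at least 2-fold and 117 at least 5-fold above all other cells, and the median ratio over those genes was 0.987. All 8 collagens that reached 10% of cells, of 26 listed, were at least 5-fold higher. Of 10 small leucine-rich proteoglycans in the table, 6 reached 10% and all 6 were at least 2-fold higher. Of 31 matrix glycoproteins, 16 reached 10%, with 15 at least 2-fold higher, and of 23 genes of collagen processing and matrix turnover, 7 reached 10%, with 6 at least 2-fold higher.

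Within the collagens, Col1a2, the partner chain of Col1a1, had UMIs in 57.6% of VLMCs at 883 CPM, and Col3a1 in 30.7% at 348 CPM. UMIs of this 3′ assay are counted per molecule and are not scaled by transcript length. Col1a2 stood at 1429, 1228, 948, 568 and 533 CPM in FGF1 replicates 6, 7, 10, 28 and 36, and 516, 1020.4, 440.0 and 1088 CPM in vehicle replicates 20, 22, 29 and 35. It was detected in all 9 of these mice, and the groups overlapped. Col3a1 and Col15a1, a collagen of basement membrane zones, stood at ratios of 475 and 154 to all other cells. The type IV chains Col4a1 and Col4a2, which endothelial cells and pericytes also make, stood at ratios of only 6.37 and 5.65.

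Dcn itself stood at 4785, 5207, 5891, 2137 and 1987 CPM in FGF1 replicates 6, 7, 10, 28 and 36, and 2073, 3413, 2074 and 4941 CPM in vehicle replicates 20, 22, 29 and 35. FGF1 replicates 6, 7 and 10 and vehicle replicate 35 were high and the other mice lower, and the groups overlapped. Bgn, which encodes biglycan, the close relative of decorin, had UMIs in 50.4% of VLMCs at a ratio of 53.5. The processing genes included Pcolce, an enhancer of procollagen cleavage, at 397 CPM and a ratio of 71.3. Serpinh1, the collagen chaperone HSP47, stood at 373 CPM and a ratio of 6.15, and Timp3, an inhibitor of metalloproteinases bound to matrix, at 2189.9 CPM and 5.51.

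By the ratio of the VLMC level to that in all other cells, among 540 genes with a UMI in at least 25% of VLMCs, the 20 leading genes included Mfap4, Inmt, Lum, Cemip, Dcn, Col3a1, Crispld2, Serpinf1, Col1a1, Spp1, Efemp1, Col1a2, Pcolce, Igf2, Nupr1, Bgn, Serping1, Gsn and Mgp. Mfap4, a glycoprotein of elastic microfibrils, led with 354 CPM against 0.216 CPM elsewhere. These levels were pooled over mice, and Mfap4 had 0 UMIs in FGF1 replicates 10 and 28 and vehicle replicates 22 and 29, while FGF1 replicates 6 and 7 and vehicle replicate 35 were the highest of the 9 mice with at least 10 VLMCs. Inmt, an enzyme that methylates indoleamines, followed with 378 against 0.240 CPM. Cemip, which takes part in the breakdown of hyaluronan, stood at 426 against 0.577 CPM. Mgp, an inhibitor of calcification, and Spp1, which encodes osteopontin, were not particular to the cluster: all 67 cells of cluster 20 had a Mgp UMI and 41.8% a Spp1 UMI. Nor was Igf2, which had UMIs in 19.2% of pericyte-like cells, against 26.3% of VLMCs.

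By level, the leading genes that are neither mitochondrial nor ribosomal were Malat1, Ptgds, Cst3, Gsn, Mt1, Apod, Dcn, Ftl1, Fos and Fth1. Ptgds, Gsn, Apod, Dcn and Fos stood above their level in all other cells, at ratios of 6.01, 39.1, 19.1, 673 and 2.34. Malat1, a nuclear long noncoding RNA, and Cst3, which encodes the protease inhibitor cystatin C, stood at ratios of 0.908 and 0.599 and so did not mark the cluster.

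Secreted growth factors and carriers of the meninges were present in part of the cells. Of 11 genes of the IGF system, 7 reached 10% of VLMCs and 6 of these were at least 5-fold higher than elsewhere. Igf2, a growth factor of leptomeninges and choroid plexus, had UMIs in 26.3% of VLMCs at 695 CPM, and Igfbp5 and Igfbp4, which bind IGFs, stood at 2954 and 268 CPM. Of 21 BMP and TGF-beta genes, 10 reached 10%, with 9 at least 2-fold higher. They included the BMP-induced factor Id3 at 1296 CPM and the ligand Bmp7 at 97.7 CPM, at ratios of 4.40 and 9.82.

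Of 15 chemokine and cytokine genes listed, 6 reached 10% of VLMCs, and all 6 were at least 2-fold higher than in all other cells pooled. Their levels in single vascular cell types are not given here. Cxcl12, the ligand of Cxcr4, had UMIs in 37.2% of VLMCs, at 482 CPM, and Cxcl1, which attracts neutrophils, in 20.9%, at 334 CPM. Ccl11, the eosinophil chemokine eotaxin, was below 10% of cells, and its UMIs lay in 3 of the 9 mice with at least 10 VLMCs, at 264, 234 and 138 CPM in FGF1 replicates 6 and 7 and vehicle replicate 35.

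Of 28 carriers and pumps listed for the meninges, 8 reached 10% of VLMCs and 3 of these were at least 5-fold higher than elsewhere. Slc6a13, a GABA and taurine carrier of leptomeninges, had UMIs in 21.7% of VLMCs, at 338 against 2.84 CPM, and Slc6a20a, a proline carrier, stood at 158 CPM. Of 13 genes of retinoid handling, 4 reached 10%. Aldh1a2, which makes retinoic acid, had UMIs in 4.39% of VLMCs, and among the 9 mice its UMIs lay in FGF1 replicates 28 and 36 and vehicle replicate 20, at 83.5, 99.9 and 65.6 CPM. Of 19 meningeal transcription factors in the table, 5 reached 10%, all at least 2-fold higher, among them Foxc1 at 206, Zic1 at 156 and Tbx18 at 131 CPM.

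Complement genes included 3 of 10 in the table that reached 10% of VLMCs, with 2 at least 5-fold higher. Serping1, the C1 inhibitor, stood at 486 against 12.3 CPM. Of 12 genes of fibroblast activation, 1 reached 10%. Of 9 glucocorticoid-responsive genes, 7 reached 10%, with 2 at least 2-fold higher and 1, Sgk1, a kinase gene, lower at 89.7 against 207 CPM. Of 18 junction and adhesion genes, 7 reached 10%, with 1 at least 2-fold higher and 1 lower. Summed markers of endothelial cells stood at 1098 CPM in VLMCs and 899.5 CPM in other cells, and those of pericytes at 1062 and 356 CPM. Of the 6 pericyte markers, 1 reached 10% of VLMCs. Vtn, a pericyte marker that is also in a gene group described below, stood at 800 CPM in the cells with 3 or more VLMC marker UMIs and at 118 CPM in those with 0.

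VLMCs of different mice differed in which matrix and carrier genes they held. A first group of 6 genes (Mfap4, Inmt, Cemip, Crispld2, Mgp and Gsn) was high in FGF1 replicates 6 and 7 and vehicle replicate 35. A second group of 6 genes (Igf2, Vtn, Apod, Slc6a13, Slc6a20a and Fmod), summed, exceeded the first in the other mice, though single genes did not all follow, and Apod was higher in FGF1 replicate 6 than in FGF1 replicates 28 and 36 and vehicle replicate 20. The groups were put together after the values of the mice had been seen, so their levels are a description with no test.

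Gsn, which encodes the actin-severing protein gelsolin, stood at 8187, 10764, 329.6, 2204 and 1721 CPM in FGF1 replicates 6, 7, 10, 28 and 36, and 2425, 5243, 503 and 14070.2 CPM in vehicle replicates 20, 22, 29 and 35. Inmt stood at 202, 610.3, 0, 0 and 99.9 CPM in FGF1 replicates 6, 7, 10, 28 and 36, and 139, 0, 0 and 1004 CPM in vehicle replicates 20, 22, 29 and 35. For both genes FGF1 replicate 7 and vehicle replicate 35 were the highest mice, 1 from each treatment, and Inmt was listed at 0 in 4 of the 9 mice. Igf2 was low where those genes were high, at 295, 166, 1895, 1369 and 1119 CPM in FGF1 replicates 6, 7, 10, 28 and 36, and 991, 1337, 1257 and 49.5 CPM in vehicle replicates 20, 22, 29 and 35.

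The lowest Igf2 mice were thus vehicle replicate 35 and FGF1 replicate 7. Apod, a lipid-binding lipoprotein, stood at 4723, 2769, 14337, 3022 and 3868 CPM in FGF1 replicates 6, 7, 10, 28 and 36, and 3171, 7037, 5783 and 1306 CPM in vehicle replicates 20, 22, 29 and 35. It was highest in FGF1 replicate 10 and lowest in vehicle replicate 35. Ptgds stood at 1895, 1895, 12442, 47894 and 44832 CPM in FGF1 replicates 6, 7, 10, 28 and 36, and 20895, 7354, 3206 and 12023 CPM in vehicle replicates 20, 22, 29 and 35, with FGF1 replicates 28 and 36 highest and FGF1 replicates 6 and 7 lowest.

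**Figure D3:**
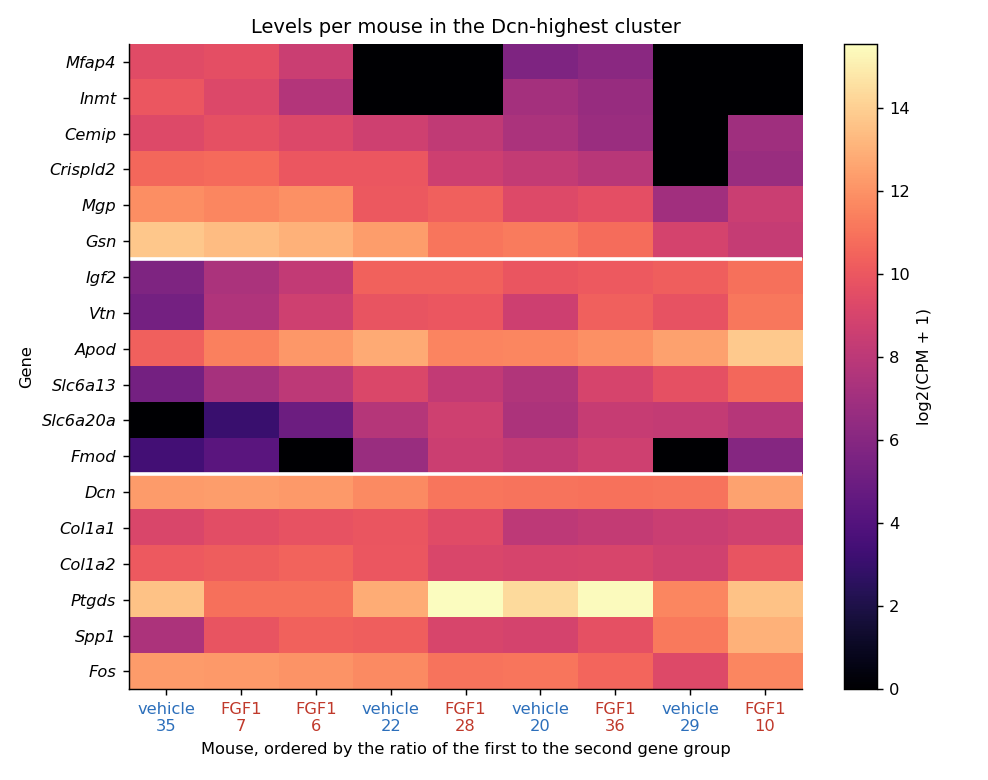
Level of each gene, as log2(CPM + 1), in the VLMCs of the 9 mice with at least 10 of them, ordered by the ratio of the first to the second gene group in cells with 3 or more VLMC marker UMIs. The blocks hold the first group, the second group and 6 genes for reference. The first group runs from bright to dark from left to right and the second group the opposite way, and FGF1 (red labels) and vehicle (blue labels) mice lie at both ends.

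Summed over the 6 genes in the cells with 3 or more marker UMIs, the first group stood at 14442, 18028, 951, 5442 and 5214 CPM in FGF1 replicates 6, 7, 10, 28 and 36 and 5127, 8263, 665 and 22657 CPM in vehicle replicates 20, 22, 29 and 35. The second group stood at 5818, 3351, 20786, 7935 and 12729 and 7621, 10677, 9442 and 1501 CPM in the same mice. The first group was the higher in FGF1 replicates 6 and 7 and vehicle replicate 35 and the second in the other 6 mice.

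Single cells of the 585 tended to carry 1 group or both. With 3 UMIs of a group as the limit, 257 cells carried the first group only, 154 the second only, 171 both and 3 neither. Igf2 and Slc6a13 are both in the second group and among the 9 markers that chose the 585 cells, so a cell could enter through the second group itself. Chosen by the other 7 markers alone, which was added after seeing the data, 561 cells remained, of which 256 carried the first group only, 131 the second only, 171 both and 3 neither. Levels of the markers are not compared between these cells, since they chose them. In FGF1 replicate 7, 116 of 180 cells carried the first group only and 9 the second only. In FGF1 replicate 36 the numbers were 10 and 51 of 97, and in vehicle replicate 35 they were 85 and 2 of 116. Cells of the first group only came from 6 of the 12 mice, and those of the second only from all 12. The cells with both groups had a median of 1427 UMIs against 1281 and 1320.0 in the cells with the first or the second group only.

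Genes outside the groups differed along with them. Cells with the first group only held Igfbp5 at 5969 CPM against 145 in cells with the second group only, and Pdgfra, the PDGF receptor of fibroblasts, at 476 against 209 CPM. Cells with the second group only held the transcription factors Zic1 at 393 against 40.1 CPM and Tbx18 at 354 against 18.7 CPM. Ptgds stood at 45437 CPM in them against 2268 CPM, and Spp1 at 2302 against 254 CPM. Aldh1a2 had 24 UMIs in cells with the second group only and 0 in the 257 cells with the first group only. Of those 257 cells, 116 came from FGF1 replicate 7 and 85 from vehicle replicate 35, whose VLMCs held no Aldh1a2 UMI. Foxc1, the transcription factor that meningeal development needs, differed less, at 211 CPM with the first and 286 CPM with the second group.

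The median ribosomal percent of the cells was 20.8% with the first group only and 13% with the second only. The early gene Fos stood at 4990.1 and 1802 CPM and Egr1 at 3506 and 611 CPM. Ribosomal percent and early genes therefore moved with the gene groups, and their part in the difference was not tested.

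Those levels pool mice that differ in level and in class, as 51 of the 154 cells with the second group only came from FGF1 replicate 36. Within single mice, 5 had at least 5 cells of either class. Ptgds stood at 141, 184, 550.4, 5743 and 1894 CPM in the cells with the first group only of FGF1 replicates 6, 7, 28 and 36 and vehicle replicate 20, and at 4119, 12279, 111285, 68719 and 41960.0 CPM in those with the second only. It was higher with the second group in 5 of 5 mice, while its level also differed strongly between mice. Spp1, Zic1 and Tbx18 were higher with the second group in 5 of 5 mice, and Igfbp5, Pdgfra, Fos and Egr1 were higher with the first in 5 of 5. The genes compared were picked with values of these same cells known, so the counts of mice are a description with no test. The share of all genes with such counts is not given here. Aldh1a2 was higher with the second group in 3 of 5 mice and stood at 0 CPM in both classes of FGF1 replicates 6 and 7. These counts of mice, Ptgds included, were the same in the cells chosen by the 7 markers outside the gene groups. In that choice, Ptgds in the cells of FGF1 replicate 36 with the first group only stood at 839 CPM over 9 cells, against 5743 CPM over 10.

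Of the receptors that could bind the injected ligand, Fgfr1 was the one of 3 examined whose share of VLMCs lay above that in the other cell types compared, except cluster 20. Fgfr1 (GRCm38, chromosome 8 from 25513654 to 25575718), a receptor tyrosine kinase, had UMIs in 30.2% of VLMCs, at 253 against 73.2 CPM in all other cells. With every cell thinned to 700 UMIs, which left out 0 cells, the share was 15.7% (95% Wilson interval 13.3% to 18.5%) in VLMCs. It was 6.72% in astrocyte-like, 3.90% in pericyte-like, 2.36% in endothelial-like and 1.71% in microglia-like cells, and 17.9% (95% Wilson interval 10.6% to 28.7%) in cluster 20. The intervals cover counting error only.

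Fgfr1 stood at 295, 324, 144, 217 and 186 CPM in FGF1 replicates 6, 7, 10, 28 and 36, and 180.3, 281, 126 and 331 CPM in vehicle replicates 20, 22, 29 and 35. It was detected in all 9 mice, and the FGF1 and vehicle mice overlapped. In the 585 cells with 3 or more VLMC marker UMIs it stood at 288 CPM, and in the 100 cells with none at 94.0 CPM, beside 102 CPM in astrocyte-like cells.

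Fgfr3, the receptor most typical of astrocytes, was concentrated in the cells without VLMC markers. Its thinned share was 10.9% (95% Wilson interval 8.87% to 13.3%) in VLMCs and 41.8% in astrocyte-like cells. The share was 7.22% in endothelial-like, 8.18% in microglia-like and 13.4% in pericyte-like cells, and that of VLMCs lay within their range. Fgfr3 stood at 611 CPM in the cells without VLMC markers and 72.4 CPM in those with 3 or more. Fgfr2 had UMIs in 4.12% of VLMCs, or 2.13% (95% Wilson interval 1.31% to 3.43%) after thinning, against 2.13% in astrocyte-like and 2.51% in pericyte-like cells. It was lower in endothelial-like cells, at 0.729%, and in microglia-like cells, at 0.802%. Whether the Fgfr3 UMIs and the few Fgfr2 UMIs of VLMCs were background was not tested. Fgfr4 and Klb were not analysed here. Of 20 FGF ligands, receptors and co-receptors in the table, 6 reached 10% of VLMCs, and 2 of these were at least 2-fold higher than elsewhere. Of 12 feedback and target genes of MAPK signalling, 4 reached 10%, with 1 at least 2-fold higher.

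Immediate early genes, which are induced within minutes of a stimulus, were abundant. All 18 listed reached 10% of VLMCs, and 14 were at least 2-fold above other cells. Fos stood at 4288, 4856, 3193, 2053 and 1515 CPM in FGF1 replicates 6, 7, 10, 28 and 36, and 2163, 3448, 629 and 5124 CPM in vehicle replicates 20, 22, 29 and 35. FGF1 replicates 6 and 7 and vehicle replicate 35 were the highest and vehicle replicate 29 the lowest, and the groups overlapped. Egr1, a zinc finger factor of the same class, stood at 1927 CPM over all VLMCs against 377 CPM in other cells, and Fosb at 1148 against 174 CPM. The tissue had been dissociated to whole cells, and the part of that step in these levels was not tested.

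Nuclei annotated as VLMC by the authors, 115 from 10 other male ob/ob mice of 11 weeks (3 FGF1 and 3 vehicle on Day 1, 2 and 2 on Day 5), gave a second view of the profile. Since that annotation itself used gene expression, the levels in nuclei are a description with no test. Of the 20 genes with the largest ratio in whole cells, 18 were in the table of nuclei, and all 18 were at least 2-fold higher in VLMC nuclei than in all other nuclei. Of the 10 genes with the highest level in whole cells, 7 were at least 2-fold higher. The share over all genes is not given here. Dcn had UMIs in 42.6% of VLMC nuclei at a ratio of 189, and Fgfr1 in 43.5% at a ratio of 4.43. Ptgds was high in nuclei too, at 14716 against 295 CPM. Of the first gene group, Mfap4, Cemip, Gsn and Mgp had 1, 19, 112 and 945 UMIs in VLMC nuclei. Of the second, Igf2, Slc6a13, Slc6a20a and Apod had 51, 92, 173 and 419. Genes of both groups were thus present in nuclei, with Mfap4 the sparsest. The nuclei, with 3 to 28 from a mouse, were not tested for a difference between treatments.

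No gene passed the test for a difference between FGF1 and vehicle in VLMCs on Day 5. Raw UMI counts were summed over the VLMCs of each mouse with at least 10 of them, which left FGF1 replicates 6, 7, 10, 28 and 36 and vehicle replicates 20, 22, 29 and 35, with 15908 to 300391 UMIs each. Of 877 genes tested with edgeR's quasi-likelihood test, 0 were called at a Benjamini-Hochberg FDR below 0.05 (0.00%), and DESeq2 also called 0. An unadjusted p below 0.05 was reached by 13 genes with edgeR (1.48% of those tested) and by 12 with DESeq2. Spread between mice was wide. The median 95% interval reached 0.734 to either side on the log2 scale.

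The 10 genes with the smallest unadjusted p all had higher means with FGF1, and each had an FDR of 1.00 (edgeR). They included Ifi27, Lgals1, S100a11, Tuba1a, Anxa5, Anxa2, Cryab and Pcolce. Lgals1, which encodes the galactoside-binding protein galectin-1, stood at 1243, 723, 700.4, 651 and 619 CPM in FGF1 replicates 6, 7, 10, 28 and 36, and 328, 598, 503 and 381 CPM in vehicle replicates 20, 22, 29 and 35. Its means were 787 ± 258 CPM in the FGF1 mice (SD, n = 5) and 452 ± 122 CPM in the vehicle mice (SD, n = 4), and its log2 fold change was 0.83 (SE 0.28, 95% interval 0.22 to 1.43). All 5 FGF1 mice lay above all 4 vehicle mice, though the gene was picked for its small p in these same mice.

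The same separation was seen for Tuba1a, a tubulin gene, with a log2 fold change of 0.61 (SE 0.23, 95% interval 0.11 to 1.10), and for Anxa2, a calcium-dependent membrane-binding protein, with 0.72 (SE 0.28, 95% interval 0.12 to 1.32). These genes too were picked for their small p in the same mice, so their separation is not separate evidence. Over all 877 genes, the groups did not overlap for 6 (0.684%), of which 5 were higher and 1 lower with FGF1. Of the possible divisions into 5 and 4 mice, a fraction of 0.0159 separates the groups completely (the smallest possible exact permutation p). The 0.684% of genes lies below that fraction, so the number of separated genes was not above what chance gives. Anxa2 stood at 186, 166, 247, 167 and 199.7 CPM in FGF1 replicates 6, 7, 10, 28 and 36, and 123, 106, 126 and 104 CPM in vehicle replicates 20, 22, 29 and 35. FGF1 replicate 10 was the highest mouse and FGF1 replicate 7 the lowest of its group.

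Ifi27, an interferon-inducible gene, had the smallest p, with 455 ± 108 CPM in the FGF1 mice (SD, n = 5) and 206 ± 119.6 CPM in the vehicle mice (SD, n = 4) and a log2 fold change of 1.04 (SE 0.34, 95% interval 0.30 to 1.78). S100a11, a calcium-binding protein, had a log2 fold change of 0.75 (SE 0.28, 95% interval 0.14 to 1.36), and Anxa5, an annexin that binds phosphatidylserine, 1.07 (SE 0.40, 95% interval 0.19 to 1.94). For Cryab, a small heat shock protein, it was 1.05 (SE 0.41, 95% interval 0.15 to 1.95), and for Pcolce 0.95 (SE 0.40, 95% interval 0.08 to 1.83). None of them held up once adjusted for the number of genes tested.

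The genes that define VLMCs did not differ beyond the spread between mice. The log2 fold change of Dcn was 0.30 (SE 0.38, 95% interval -0.53 to 1.12), that of Col1a1 0.17 (SE 0.39, 95% interval -0.68 to 1.03) and that of Lum 0.43 (SE 0.33, 95% interval -0.29 to 1.14). For Fgfr1 it was -0.09 (SE 0.33, 95% interval -0.81 to 0.64) and for Fgfr3 -0.32 (SE 0.63, 95% interval -1.69 to 1.05). The intervals of Igf2, 0.19 (SE 0.86, 95% interval -1.70 to 2.07), and Gsn, -0.36 (SE 0.92, 95% interval -2.38 to 1.67), were wider, as these genes differed strongly between mice of the same treatment. Ptgds, at 1.02 (SE 0.95, 95% interval -1.08 to 3.11), and Spp1, at 1.29 (SE 0.93, 95% interval -0.77 to 3.35), had the same limit. Igf2, Gsn, Ptgds and Spp1 each changed sign under at least 1 alternative.

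**Figure D4:**
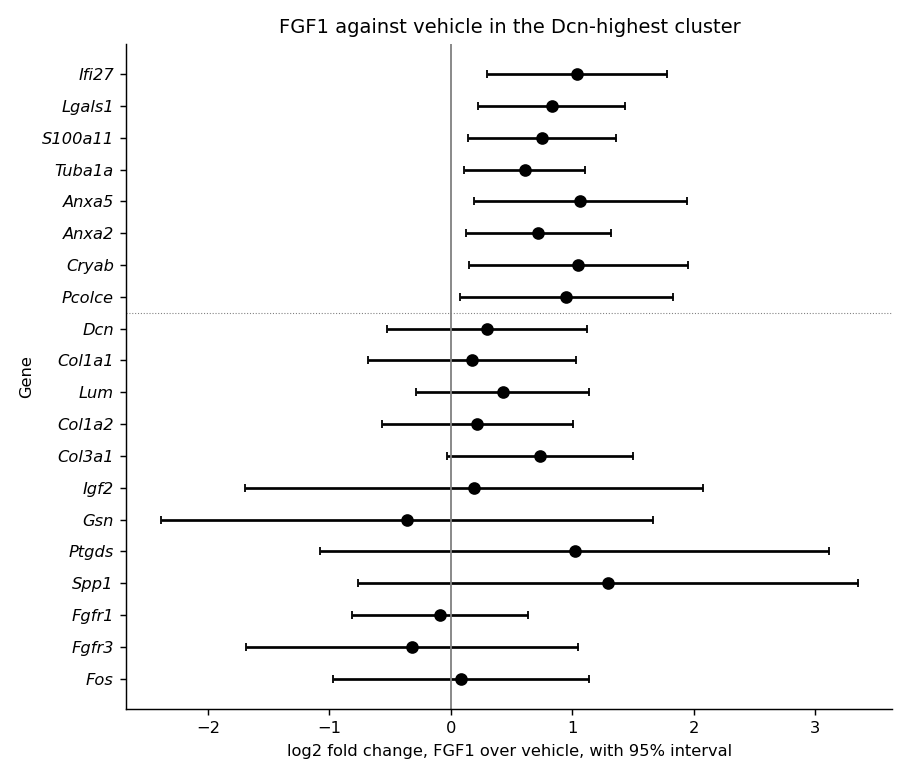
Log2 fold change of FGF1 over vehicle in VLMCs with its 95% interval (edgeR; 5 FGF1 and 4 vehicle mice). Above the dotted line are genes named for the smallest unadjusted p, and below it VLMC genes, receptors and Fos. The intervals of the lower genes all cross 0, and no gene in the plot passed the FDR threshold.

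By gene list, the counts were read against 12 of 877 genes that reached an unadjusted p below 0.05 higher with FGF1 and 1 lower. With the metadata batch as a block that split turned to 3 higher and 6 lower. The counts were also read against a median log2 fold change of -0.02 over all genes tested, of which 414 of 877 had a value above 0. All 9 tested VLMC markers had a value above 0, with a median of 0.22, and 0 of them reached that p. Of 6 tested collagens, 5 had a value above 0 (median 0.20), and 9 tested matrix glycoproteins had a median of 0.34. Col1a1, Col1a2 and Col3a1 are in both the marker and the collagen list, so those counts are not separate. The 5 tested IGF genes had a median of -0.25, the 7 tested carriers -0.19 and the 17 tested immediate early genes -0.30, with 0 at that p in each list. Of the list of 12 MAPK feedback and target genes, which does not hold Dusp1, 0 were abundant enough to be tested.

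A list of genes reported to respond to FGF1 in glia of these mice (among them Vim, S100a6, S100a10, S100a11 and Anxa2) was not independent evidence of direction, as it was chosen on the same animals. Of its 8 members tested in VLMCs, 7 had a value above 0, with a median of 0.51, and 3 (S100a11, Anxa2 and Vim) reached an unadjusted p below 0.05, all higher with FGF1. None passed the FDR threshold. The 4 tested astrocyte markers all had values below 0 (median -0.59), and their summed level ranged from 987 to 3902 CPM in FGF1 mice and from 1681 to 4523 CPM in vehicle mice. Their part in the other values was not tested.

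To ask whether VLMCs and astrocytes differed in their response, the effect of FGF1 in VLMCs was compared with that in astrocyte-like cells of the same 9 mice, with the mouse as a factor in edgeR. The p-values and intervals of that fit rested almost wholly on a spread pooled over genes. Each gene's own spread between mice carried next to no weight in them. Of 7802 genes tested, 7 (0.0897%) passed an FDR of 0.05. Cxcl10, Ifit1 and Ttr were among these 7 although they were too sparse to be tested within VLMCs, and they entered with the counts of astrocyte-like cells included. The effect was higher in VLMCs for the early genes Fos, Klf4, Cyr61 and Dusp1 and for Ttr, and lower in VLMCs for the interferon-inducible genes Cxcl10 and Ifit1. In astrocyte-like cells of those mice alone, 660 of 10523 genes (6.27%) were called between FGF1 and vehicle.

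Of the early genes, Dusp1 and Klf4 passed the test as lower with FGF1 in astrocyte-like cells, and Fos and Cyr61 did not. Dusp1, a phosphatase that switches off MAP kinases, stood in them at 28.9, 23.5, 23.9, 15.3 and 25.5 CPM in FGF1 replicates 6, 7, 10, 28 and 36, and 115, 91.1, 51.0 and 96.4 CPM in vehicle replicates 20, 22, 29 and 35. All 5 FGF1 mice lay below all 4 vehicle mice, and the fall by 1.97 on the log2 scale passed the test (SE 0.20, edgeR FDR 5.47e-06). How many of all genes tested in astrocyte-like cells separate the mice in that way was not counted. In VLMCs Dusp1 stood at 451, 414, 371, 384 and 166 CPM in FGF1 replicates 6, 7, 10, 28 and 36, and 352, 633, 566 and 425 CPM in vehicle replicates 20, 22, 29 and 35, where the groups overlapped. The log2 fold change there was -0.46 (SE 0.31, 95% interval -1.13 to 0.21), and the difference between the effects was 1.64 (SE 0.39, 95% interval 0.86 to 2.41) with an edgeR FDR of 0.0365.

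Fos stood at 486, 255, 979.9, 331 and 905 CPM in FGF1 replicates 6, 7, 10, 28 and 36, and 2032, 1879, 1033 and 2199 CPM in vehicle replicates 20, 22, 29 and 35 in astrocyte-like cells. There the FGF1 mice lay below the vehicle mice, with a log2 fold change of -1.63 that did not pass (SE 0.46, edgeR FDR 0.0948). In VLMCs the log2 fold change was 0.08 (SE 0.48, 95% interval -0.97 to 1.14), and the effects differed by 2.25 (SE 0.45, 95% interval 1.37 to 3.12) with an edgeR FDR of 0.00235. Klf4, a zinc finger factor of the early response, fell by 1.89 on the log2 scale in astrocyte-like cells (edgeR FDR 0.0217), and its effects differed by 1.86 (SE 0.41, 95% interval 1.06 to 2.66). Cyr61, a matricellular protein, had a value of -1.39 in astrocyte-like cells that did not pass (edgeR FDR 0.175), where FGF1 replicates 10 and 36, at 188 and 230.5 CPM, lay above vehicle replicate 29 at 153 CPM. Its effects differed by 1.83 (SE 0.43, 95% interval 1.00 to 2.67).

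Cxcl10 stood in VLMCs at 451, 139, 0, 66.8 and 13.3 CPM in FGF1 replicates 6, 7, 10, 28 and 36, and 115, 246, 0 and 465 CPM in vehicle replicates 20, 22, 29 and 35. FGF1 replicate 6 and vehicle replicate 35 were the highest, and FGF1 replicate 10 and vehicle replicate 29 were at 0. In astrocyte-like cells it stood at 41.0, 29.4, 0.508, 22.9 and 1.63 CPM in FGF1 replicates 6, 7, 10, 28 and 36, and 0.448, 12.1, 0.962 and 4.28 CPM in vehicle replicates 20, 22, 29 and 35. Its effects differed by -3.04 (SE 0.54, 95% interval -4.11 to -1.98), and those of Ifit1 by -1.88 (SE 0.45, 95% interval -2.76 to -0.996). In vehicle replicate 35, VLMCs held 94 UMIs of Cxcl10, 19 of them in 1 cell, and 83 of Ifit1. Without that mouse the differences were -2.20 and -1.43, with edgeR FDRs of 0.372 and 0.726.

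Ttr, the thyroxine carrier of the choroid plexus, had 68 UMIs over all VLMCs of the 9 mice, and 64 of them lay in 2 cells of FGF1 replicate 36, 57 in 1 of them. None of the 64 lay in a cell with 3 or more VLMC marker UMIs. The difference of 4.78 (SE 1.08, 95% interval 2.66 to 6.89) became 1.03 in the cells with 3 or more marker UMIs, so the call rested on those cells.

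The number of calls depended on single mice and on the method. DESeq2 called 0 of the 7802 genes, with 259 at an unadjusted p below 0.05. Under RLE scaling, edgeR called 8 genes, of which 4 were higher and 4 lower in VLMCs, where TMM scaling gave 5 and 2. Leaving out vehicle replicate 20 left 1 call, FGF1 replicate 6 left 2, FGF1 replicate 28 left 3 and vehicle replicate 35 left 4, and leaving out vehicle replicate 22 gave 12. The call of Fos was lost without FGF1 replicate 6 or vehicle replicate 20, that of Klf4 without FGF1 replicate 6, 7 or 28 or vehicle replicate 20, and that of Ttr without vehicle replicate 20. With 1 of the 9 mice left out at a time, Cyr61 was still called 4 times, Dusp1 3 times and Ifit1 2 times. Their lowest and highest differences were 1.74 to 2.68 for Fos and 1.41 to 1.97 for Dusp1. All 7 genes kept the sign of the difference in every such fit that tested them.

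**Figure D5:**
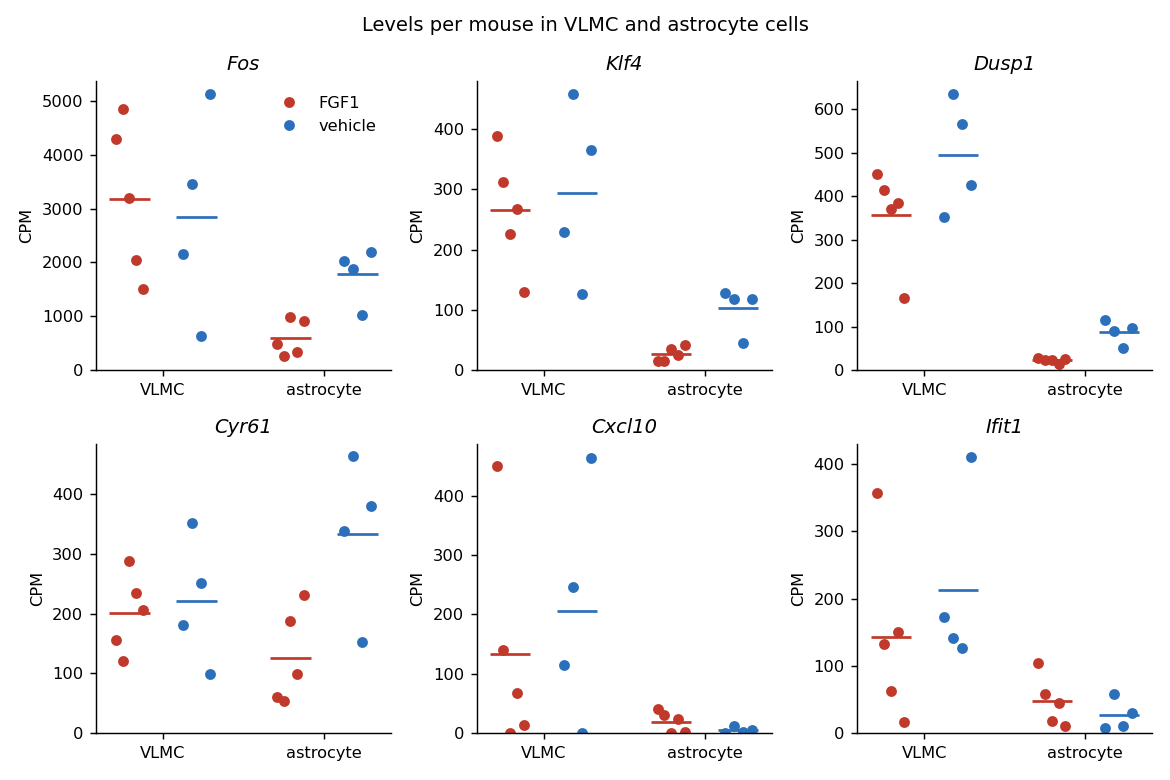
Level in CPM of 6 genes in VLMCs and in astrocyte-like cells of the same 9 mice; each point is a mouse, FGF1 in red and vehicle in blue, and each line is a group mean. Dusp1, Fos and Klf4 separate the treatments in astrocyte-like cells and overlap in VLMCs, while Cxcl10 and Ifit1 in VLMCs are highest in vehicle replicate 35 and FGF1 replicate 6. The genes were picked by the test of the difference between the effects, and Fos did not pass the test within astrocyte-like cells.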

How the data were processed

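Whole cells of the hypothalamus of 12 ob/ob mice and nuclei of 10 others were profiled by droplet 3′ RNA-seq, 1 mouse per library. The authors deposited raw UMI counts per gene and barcode, which were used as deposited. They also deposited, per barcode, the cluster, the batch and the percent of UMIs that were mitochondrial or ribosomal. Tables of normalized values were not used here. Per the methods and the submitters' processing notes, reads were counted with Cell Ranger 1.2 on GRCm38 (mm10; GRCh38 is listed too) and clustered with Seurat. For whole cells, the methods describe removal of doublets found by Scrublet, neurons, mixed subclusters and subclusters with 50% of cells from 1 sample. For nuclei, they state that the Scrublet step was left out. No doublet caller was run here. Of the deposited VLMCs, 255 lay above the limit of the methods for mitochondrial or ribosomal UMIs. Whether every step described was applied to the deposited cells is therefore not known.

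VLMCs were the cluster with the highest share of Dcn cells. Other clusters are called "-like" from 3 or more markers with a UMI in at least 10% of cells and at least 2-fold the level of all other cells, where the shares of cells with these markers also averaged at least 50% of the highest share of any cluster. CPM were computed from counts summed over cells. Counts were summed per mouse with at least 10 VLMCs and tested with edgeR 4.0.16 (quasi-likelihood, TMM, Benjamini-Hochberg FDR below 0.05) in R 4.3.3. DESeq2 1.42.0 was the alternative. The edgeR step was tested on simulated data. The difference from astrocyte-like cells was an interaction with the mouse as a factor. For shares and medians per mouse, two-sided permutation tests were exact (scipy 1.17.1). For shares of cells with a receptor UMI, cells were thinned to 700 UMIs.

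Named genes were the 20 with the largest ratio to other cells among those in at least 25% of VLMCs, the 10 with the highest level, the 10 with the smallest p, up to 4 of each list by level, the FGF receptors and the called interaction genes. The 2 gene groups and the other genes named (among them Col15a1, Ccl11, Aldh1a2, Bmp7, Fosb and Sgk1) were chosen after their values were seen. For 2 genes that met the rule, results are not reported here. The members and lists were chosen with earlier results of these data known. Alternatives were other cell minimums, filters, scalings, the batch as a block, mice left out and, added after seeing the data, cells with 3 or more VLMC marker UMIs and cells chosen by the 7 markers outside the gene groups.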

Additional observations from a re-analysis of the deposited data

Results flagged for a closer look

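In 88 groups of 4 to 6 mice (39 genes and the per-mouse measures), 1 mouse stood far from the others in 9. The measure was the gap to the nearest mouse over the range of the group, set against Dixon's 95% critical value, which chance passes in about 1 in 20 groups. Among FGF1 mice, replicate 10 had the highest median UMIs per VLMC (2118), the highest Spp1 (8178 CPM) and the highest Apod (14337 CPM), from 20 cells. FGF1 replicate 6 had the highest Lgals1 (1243 CPM). Among vehicle mice, replicate 35 stood apart in its share of VLMCs (3.31%), in Mfap4 (682 CPM) and in Inmt (1004 CPM). Vehicle replicate 29 was far from the others in Tuba1a (251 CPM) and vehicle replicate 20 in Cst3 (11849 CPM).

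For 7 genes edgeR called a difference between the effects of FGF1 in VLMCs and in astrocyte-like cells of the same mice, and DESeq2 called 0. By edgeR's interaction test the log2 differences, VLMC minus astrocyte, were 2.25 for Fos, 1.86 for Klf4, 1.83 for Cyr61, 1.64 for Dusp1 and 4.78 for Ttr. They were -3.04 for Cxcl10 and -1.88 for Ifit1. The value of Ttr came from 64 UMIs in 2 cells of FGF1 replicate 36, neither with 3 VLMC marker UMIs, and the call was absent in cells with 3 or more (edgeR FDR 0.958). Without vehicle replicate 35 the calls of Cxcl10, Cyr61, Dusp1 and Ifit1 were lost (edgeR FDR 0.372, 0.449, 0.132 and 0.726), and all but Cxcl10 also lost the call without vehicle replicate 20.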

How the results depend on the processing

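By replicate number, no paired analysis was possible because the FGF1 and vehicle whole-cell mice share none. By metadata batch a paired analysis was run: the share of VLMCs was compared within 6 batches, and in the gene fit the batch as a block paired 3 FGF1 with 3 vehicle mice. For FGF1 against vehicle in VLMCs, 0 genes were called in every alternative run. With no filter beyond 1 UMI, 14311 genes were tested, 673 reached an unadjusted p below 0.05 and the smallest FDR was 0.0722, and with the metadata batch as a block 9 reached that p, 3 higher and 6 lower with FGF1, where 12 were higher and 1 lower without it. The 7 calls of the difference from astrocyte-like cells became 13 in cells with 3 or more VLMC marker UMIs, 0 with DESeq2, 3 with mice of at least 5 cells, 2 with no filter beyond 1 UMI and 4 without cells above 20% mitochondrial or ribosomal UMIs. They ranged from 1 to 12 when 1 mouse was left out. The cause was not tested. Among log2 fold changes of VLMCs that did not pass, some changed sign. Fgfr1 became 0.0599 with no filter and 0.20 without cells above 20%, and Fos became -0.29 in mice with at least 20 cells. Klf4 became 0.14 without cells above 20%, and Cyr61 became -0.0193 with DESeq2, -0.0711 without cells above 20% and -0.16 with the batch block. Igf2 became -0.0812 without cells above 20% and -0.83 with the batch block, Gsn 0.0917 in mice with at least 5 cells and 0.30 with the batch block, and Ptgds -0.93 with the batch block. When 1 mouse was left out, Col1a1 ranged from -0.0534 to 0.53, Fgfr1 from -0.21 to 0.25, Fgfr3 from -0.69 to 0.37, Fos from -0.21 to 0.57, Cyr61 from -0.33 to 0.31, Igf2 from -0.29 to 0.48, Gsn from -0.86 to 0.74 and Spp1 from -0.0326 to 2.00. The difference in median ribosomal percent ranged from -1.42 to 1.79 percentage points. In 21 cases among the 7 called genes an alternative, and in 26 the loss of 1 mouse, kept the direction of a call but not the call. These counts include the losses of calls described above. Depth was limited by cells: 3 mice had fewer than 10 VLMCs and were not fitted, and a vehicle mouse with 11 cells carried the same weight in the exact tests as one with 123.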
